A study of Mus musculus with 3 samples.

Results

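The genes described encode the lysosomal proton pump and proteins of the lysosomal membrane, and were measured in immune cells from bronchoalveolar lavage of mice. Members were chosen by symbol: every gene whose symbol starts with Atp6v0, Atp6v1 or Atp6ap, plus Lamp1, Lamp2, Cd63, Mcoln1, Tfeb, Tfe3, Map1lc3b, Gabarap, Neu1, Glb1, Gusb and Gaa. Of 33696 genes in the tables, 38 matched, and 30 of these had at least 100 unique molecular identifiers (UMIs, one per captured RNA molecule) over the 3 libraries in the cells kept, as did 13355 genes in all. The 8 matching genes below that minimum were Atp6v1c2 with 42 UMIs, Atp6v0e2 with 14, Atp6v1b1 and Atp6v0a4 with 6 each, Atp6v1g3 with 4, Atp6v1fnb with 3, and Atp6ap1l and Atp6v1e2 with none. Just above it stood Atp6v1g2 with 864 UMIs and Gaa with 3752. Several of those below it are tissue-restricted forms of a subunit: the a4, B1 and G3 forms are known from acid-secreting cells of the kidney. Atp6v1fnb is not a pump subunit but a neighbour of Atp6v1f.

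The vacuolar ATPase (V-ATPase) is a rotary pump that acidifies lysosomes, endosomes and phagosomes. Its V1 sector, in the cytosol, hydrolyses ATP, and its V0 sector, in the membrane, carries protons across, so that the hydrolases of the lumen reach the low pH at which they work. Alveolar macrophages depend on this system to break down inhaled particles, dead cells and surfactant. The transcription factors TFEB and TFE3 are known to switch on many of these genes through a short promoter word when lysosomes are stressed.

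Per the labels, the cells came from wild-type C57BL/6J mice, 12 weeks old, exposed for 3 hours to filtered air, to ozone at 1 ppm or to ozone at 1.5 ppm, and lavaged 22 to 24 hours after exposure. Cells of 3 to 4 mice were pooled into 1 library per group, so there is no replicate and no test between groups. Intervals in parentheses are exact 95% intervals and cover counting error only. They leave out differences between mice, days and library preparations.

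The libraries held 5307, 3233 and 7269 barcodes and 59359742, 42825676 and 95403078 UMIs for air, 1 ppm and 1.5 ppm. After filtering, 3479, 2241 and 6577 cells remained. Barcodes with over 10% mitochondrial UMIs made up 34.2%, 30.6% and 9.07% of each library, and between 4 and 10 barcodes were shared by any pair of libraries. Alveolar-macrophage-like cells, named from 15 markers such as Chil3, Siglecf and Marco, which were all detected in each library, numbered 3313, 2131 and 5671 and held 49682627, 37363050 and 89763323 UMIs. Their median mitochondrial share was 4.12%, 3.97% and 2.31%, and their median depth 13863, 16000 and 13073 UMIs per cell. Unless another class is named, levels are CPM, parts in 1e6 of the summed UMIs of these cells. The assay counts 1 tag per molecule, so a level is not divided by gene length.

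Summed over the 30 genes, the lysosomal set took 8380 CPM in air, 8739 CPM at 1 ppm and 8669 CPM at 1.5 ppm. No member differed by 1.5-fold or more in any pair of libraries. Among all 13355 genes, the share at least 1.5-fold higher was 2.51% for 1 ppm against air, 12.6% for 1.5 ppm against air and 12.2% for 1.5 ppm against 1 ppm. The share at least 1.5-fold lower was 4.61%, 4.98% and 3.49% in those comparisons. The median log2 ratio of the members was 0.02 for 1 ppm against air, −0.11 for 1.5 ppm against air and −0.03 for 1.5 ppm against 1 ppm, beside −0.05, −0.04 and 0.01 for all genes.

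With a lower limit, a log2 ratio of 0.32 either way, single members stood out in both directions. At 1 ppm against air, Cd63 was the 1 member higher and Atp6v0a1 the 1 member lower, where 8.97% of all genes were higher and 12.6% lower. At 1.5 ppm against air, 5 members were higher, namely Map1lc3b, Atp6v1f, Atp6v0e, Cd63 and Atp6v1g1, where 22.8% of all genes were higher. The 5 members lower were Glb1, Atp6v0a1, Mcoln1, Atp6v0d1 and Atp6v1b2, where 18.3% of all genes were lower. At 1.5 ppm against 1 ppm, Atp6v0e was higher and Gaa, Atp6v0d1, Mcoln1, Glb1 and Tfeb were lower, where 22.2% of all genes were higher and 12.1% lower. The 5 of 30 members in each direction at 1.5 ppm against air are shares near those of all genes. Of 9665 genes with at least 1000 UMIs, which include 29 members, 17.4% were past that limit higher and 17.8% lower at 1.5 ppm against air.

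The members did not share 1 order over the doses. From air over 1 ppm to 1.5 ppm, 7 members were stepwise higher and 11 stepwise lower, while 9 were highest and 3 lowest at 1 ppm. Among all genes these shares were 19.7%, 25.8%, 21.6% and 32.7%.

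**Figure D1:**
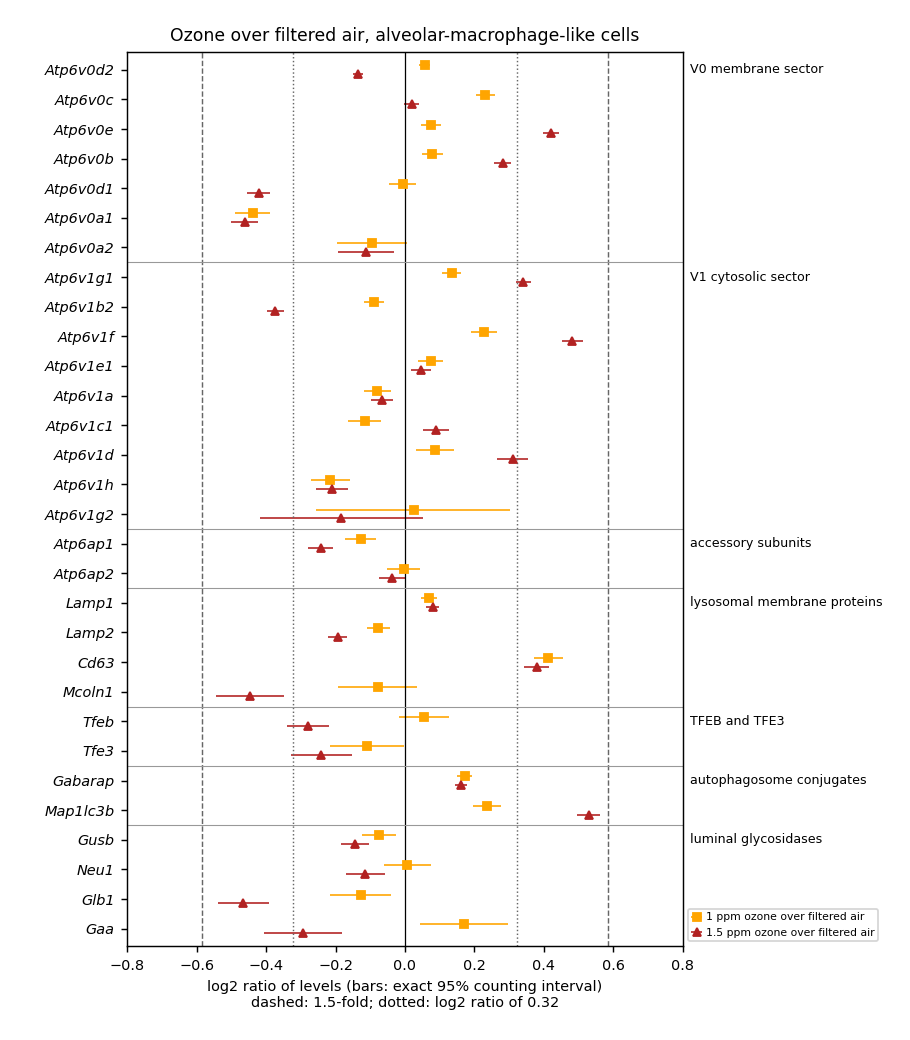
Log2 ratios of each of the 30 members in alveolar-macrophage-like cells, 1 ppm over air and 1.5 ppm over air, with exact 95% counting intervals as bars, and members grouped by role. Dashed lines mark 1.5-fold and dotted lines a log2 ratio of 0.32: no point passes a dashed line, and most of the points past a dotted line belong to the 1.5 ppm library.

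The V0 sector is a ring of small c-type subunits around which the a and d subunits hold the pump in the membrane and link it to V1. The 7 measured V0 genes summed to 3165 CPM in air, 3299 CPM at 1 ppm and 3176 CPM at 1.5 ppm, so the 1.5 ppm sum was 1.00 times that of air (0.997 to 1.01). Under this even total the subunits differed in direction. Atp6v0e, a small subunit of the membrane sector, stood at 462 CPM in air, 486 CPM at 1 ppm and 619 CPM at 1.5 ppm. Its level at 1.5 ppm was 1.34 times that of air (1.32 to 1.36) and 1.27 times that of 1 ppm. Atp6v0b, which encodes a ring subunit, also had its highest level at 1.5 ppm, with 392, 413 and 476 CPM over the doses, a ratio to air of 1.22 (1.20 to 1.24) at the top dose. Atp6v0c, which encodes the proteolipid that forms most of the ring, was highest at 1 ppm instead. Its levels were 493, 579 and 499 CPM, 1.17 times air at 1 ppm (1.15 to 1.20) and level with air at 1.5 ppm (0.998 to 1.03 times).

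The a subunits shape the proton channel and direct the pump to its membrane. Atp6v0a1 was lower in both ozone libraries, by about the same amount: 185 CPM in air, 137 CPM at 1 ppm and 135 CPM at 1.5 ppm. In the 1 ppm library it was 0.737 times air (0.713 to 0.763) and in the 1.5 ppm library 0.726 times air (0.707 to 0.746). The 1.5 ppm level was 0.985 times that of 1 ppm. Atp6v0a2, the form known from the Golgi and early endosomes, had 39.5, 37.0 and 36.6 CPM, from 1963, 1383 and 3281 UMIs. It was 0.937 times air at 1 ppm (0.874 to 1.00) and 0.925 times air at 1.5 ppm (0.875 to 0.979). The share of Atp6v0a2 in the UMIs of this pair was accordingly 17.6%, 21.3% and 21.4%. The a3 form, encoded by Tcirg1, does not match the naming rule. It was measured in the same cells at 75.7 CPM in air, 86.6 CPM at 1 ppm and 66.7 CPM at 1.5 ppm.

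The d subunits form the stalk between the ring and V1. Atp6v0d1 is the widely expressed form, and Atp6v0d2 is known from osteoclasts and macrophages. Atp6v0d2 had the most UMIs of all 30 members, with 1351 CPM in air, 1405 CPM at 1 ppm and 1229 CPM at 1.5 ppm. The ratio to air was 1.04 at 1 ppm (1.03 to 1.05) and 0.910 at 1.5 ppm (0.901 to 0.919). Atp6v0d1 had 243, 242 and 181 CPM, so that it was level with air at 1 ppm, at a ratio of 0.995 (0.968 to 1.02), and lower at 1.5 ppm, at 0.746 (0.729 to 0.764). Atp6v0d2 therefore supplied 84.8%, 85.3% and 87.1% of the UMIs of the d pair over the doses.

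**Figure D2:**
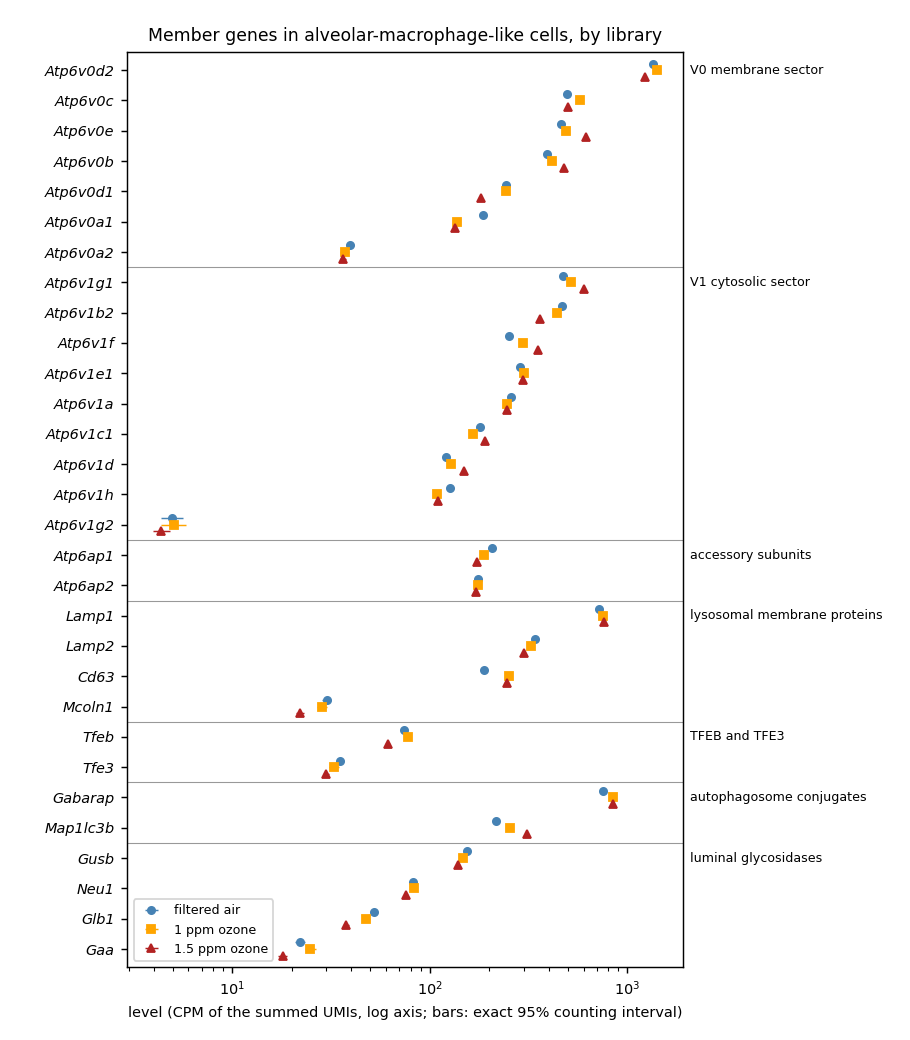
CPM of each of the 30 members in alveolar-macrophage-like cells of the air, 1 ppm and 1.5 ppm libraries, on a log axis, with members grouped by role. At 1.5 ppm levels span from 4.38 CPM for Atp6v1g2 to 1229 CPM for Atp6v0d2, and the 3 points of a gene lie close together beside the distance between genes.

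The V1 sector holds the catalytic A and B subunits, the peripheral stalks of C, E and G, the central D and F, and the regulatory H. Its 9 measured genes summed to 2169, 2208 and 2309 CPM over the doses, 1.02 times air at 1 ppm (1.01 to 1.03) and 1.06 times air at 1.5 ppm (1.06 to 1.07). Atp6v1f and Atp6v1d, of the central rotor, and Atp6v1g1, of a stalk, were higher with dose. Atp6v1f had 253 CPM in air, 296 CPM at 1 ppm and 353 CPM at 1.5 ppm, ratios to air of 1.17 (1.14 to 1.20) and 1.40 (1.37 to 1.43). Atp6v1d had 121, 128 and 150 CPM, and its ratio to air at 1.5 ppm was 1.24 (1.20 to 1.28). Atp6v1g1, the main G subunit, had 474, 520 and 600 CPM, and its ratio to air at 1.5 ppm was 1.27 (1.247 to 1.286). Centring on genes of like transcript length, described below, changed these values. The log2 ratio to air at 1.5 ppm was then 0.02 for Atp6v1f (uncentred 0.48), 0.05 for Atp6v1g1 (0.34) and 0.39 for Atp6v1d (0.31).

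The genes of the nucleotide-binding subunits were not higher with dose. Centred on like length, their log2 ratios to air at 1.5 ppm were −0.29 for Atp6v1b2 and 0.09 for Atp6v1a. Atp6v1b2, the B form of most cells, had 467 CPM in air, 439 CPM at 1 ppm and 360 CPM at 1.5 ppm, which is 0.941 (0.922 to 0.960) and 0.772 (0.759 to 0.785) times air. Atp6v1a, the catalytic A subunit, had 259, 245 and 247 CPM, or 0.946 and 0.956 times air. Atp6v1h, which encodes a subunit needed to couple ATP hydrolysis to pumping, had 127, 109 and 110 CPM, or 0.862 (0.828 to 0.896) and 0.864 (0.837 to 0.892) times air. The stalk genes Atp6v1e1 and Atp6v1c1 had 286, 301 and 295 CPM and 179, 165 and 190 CPM. Atp6v1g2, the G form known from neurons, was scarce at 4.97, 5.06 and 4.38 CPM and supplied 1.04%, 0.964% and 0.725% of the G pair. Its intervals against air, 0.837 to 1.23 at 1 ppm and 0.749 to 1.04 at 1.5 ppm, include no difference.

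The accessory subunits help to assemble the pump in the endoplasmic reticulum. Atp6ap1 had 206, 188 and 174 CPM over the doses, 0.845 times air at 1.5 ppm (0.824 to 0.867). Atp6ap2, also known as the prorenin receptor, had 175, 175 and 171 CPM. All 18 pump genes together came to 5714, 5870 and 5829 CPM, 1.03 times air at 1 ppm (1.02 to 1.03) and 1.02 times air at 1.5 ppm (1.02 to 1.02). The sum of the pump transcripts thus lay close to that of air in both ozone libraries, while at 1.5 ppm its single genes ranged from 0.726 to 1.40 times air.

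Among the 4 lysosomal membrane proteins, Cd63 stood apart. It encodes a tetraspanin of late endosomes, lysosomes and exosomes, and had 188 CPM in air, 251 CPM at 1 ppm and 245 CPM at 1.5 ppm. Both ozone libraries were above air, at 1.33 times (1.29 to 1.37) and 1.30 times (1.27 to 1.33). Lamp1 and Lamp2 encode the glycoproteins that line the inner face of the lysosomal membrane. Lamp1 had 718, 753 and 760 CPM over the doses, and Lamp2, which also serves chaperone-mediated autophagy, had 342, 324 and 299 CPM, 0.875 times air at 1.5 ppm. Mcoln1, the calcium channel that signals lysosomal stress, had 30.1, 28.5 and 22.1 CPM. It was 0.947 times air at 1 ppm (0.875 to 1.03) and 0.734 times air at 1.5 ppm (0.686 to 0.786).

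Tfeb and Tfe3 encode related transcription factors that, in their active form, leave the lysosomal surface for the nucleus. Their regulation is known to act mostly on the protein, which RNA counts do not read. Tfeb had 74.3 CPM in air, 77.1 CPM at 1 ppm and 61.2 CPM at 1.5 ppm, 0.824 times air at the top dose (0.790 to 0.860). Tfe3 had 35.3, 32.7 and 29.8 CPM, 0.846 times air at 1.5 ppm (0.796 to 0.899). The sum of both was 1.00 times air at 1 ppm (0.963 to 1.04) and 0.831 times air at 1.5 ppm (0.803 to 0.860).

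These factors are known to bind CACGTG, and most strongly TCACGTGA, the core of the element named CLEAR. Promoter windows of 250 bases before and 50 after the start, from RefSeq on GRCm38.p6, were available for 24 of the 30 members. That build is older than the GRCm39 of the counts, so the coordinates that follow are GRCm38 coordinates. Atp6v0a2, Atp6v0d2, Atp6v1b2, Atp6v1c1, Atp6v1g1 and Atp6v1h were not in that table. The word CACGTG, which reads the same on both strands, occurred in a window of 8 of these 24 members (33.3%), against 8.09% of all 27025 genes in the table. TCACGTGA, which contains it, occurred in 4 of 24 (16.7%), against 1.12%. The 27025 genes were not limited to those of at least 100 UMIs, as the members were. Many genes of this set are known targets of TFEB and TFE3, as given above. A higher share therefore partly follows from the choice of genes and is not a result of these libraries. A match is a description of these letters and does not show binding. The stretches upstream of the start are shown for the 6 of the 8 members in which the word lies wholly before the start. Capitals mark CACGTG, or TCACGTGA where the longer word is present.
Atp6v0b, chr4:117887330-117887381, minus strand: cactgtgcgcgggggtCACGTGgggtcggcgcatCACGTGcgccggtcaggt
Lamp1, chr8:13159084-13159160, plus strand: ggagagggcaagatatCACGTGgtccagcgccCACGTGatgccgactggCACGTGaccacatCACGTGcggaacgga
Mcoln1, chr8:3500432-3500495, plus strand: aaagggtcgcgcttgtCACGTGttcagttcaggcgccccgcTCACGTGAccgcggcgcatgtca
Glb1, chr9:114401014-114401051, plus strand: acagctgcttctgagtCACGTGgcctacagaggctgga
Gaa, chr11:119267807-119267844, plus strand: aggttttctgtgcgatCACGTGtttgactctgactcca
Atp6v1a, chr16:44139369-44139406, minus strand: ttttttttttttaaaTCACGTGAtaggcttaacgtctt

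The Lamp1 window holds 4 copies, those of Atp6v0b and Mcoln1 hold 2 each, and the other 3 hold 1. Measured from the first base of the word, the copy nearest the start begins 15 bases before it in Lamp1, 18 in Atp6v0b, 45 in Mcoln1, 48 in Glb1, 131 in Atp6v1a and 140 in Gaa. In the remaining 2 of the 8, which are not printed, the word spans the start in Atp6v0d1, beginning 3 bases before it, and lies after the start in Atp6v0e. At 1.5 ppm against air the 8 members with the word did not share a direction. The log2 ratio was 0.42 for Atp6v0e, 0.28 for Atp6v0b and 0.08 for Lamp1, and −0.07 for Atp6v1a, −0.29 for Gaa, −0.42 for Atp6v0d1, −0.45 for Mcoln1 and −0.47 for Glb1.

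The conjugates Map1lc3b and Gabarap encode ubiquitin-like proteins that are attached to lipids of the autophagosome membrane and draw cargo into it. Map1lc3b had the highest ratio to air of all members at 1.5 ppm. It stood at 215 CPM in air, 254 CPM at 1 ppm and 311 CPM at 1.5 ppm, or 1.18 (1.15 to 1.21) and 1.44 (1.41 to 1.48) times air. Gabarap had 752, 847 and 841 CPM, 1.13 times air at 1 ppm and 1.12 times air at 1.5 ppm. The pair summed to 967, 1101 and 1152 CPM.

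The glycosidases work inside the lysosome and depend on its acidity. Glb1, the lysosomal beta-galactosidase, had 52.1 CPM in air, 47.6 CPM at 1 ppm and 37.7 CPM at 1.5 ppm. Its level was 0.915 times air at 1 ppm (0.861 to 0.973) and 0.724 times air at 1.5 ppm (0.688 to 0.763), the lowest ratio of any member. Gaa, the enzyme that breaks down glycogen, was highest at 1 ppm, with 22.1, 24.8 and 18.0 CPM, and at 1.5 ppm stood at 0.725 times its 1 ppm level (0.668 to 0.787). Neu1, a sialidase, had 82.4, 82.8 and 76.1 CPM, and Gusb, the beta-glucuronidase, had 154, 146 and 140 CPM. All 4 were below air at 1.5 ppm, and their sum, 311, 302 and 271 CPM over the doses, was 0.873 times air (0.856 to 0.891).

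The share of cells with at least 1 UMI was read at equal depth. Each cell was thinned to 5000 UMIs, and 59, 34 and 320 shallower cells were left out. Atp6v0a1 was then seen in 56.5% of air cells, 46.5% of 1 ppm cells and 45.4% of 1.5 ppm cells. Map1lc3b was seen in 63.5%, 69.1% and 76.2%, Atp6v1f in 69.3%, 74.6% and 79.7%, and Atp6v0d1 in 67.7%, 68.5% and 58.5%. Atp6v0d2 was seen in 98.0%, 98.8% and 98.5%. For comparison, a cluster of 72 cells in the 1.5 ppm library carried all 10 T cell markers, with a median of 3798.5 UMIs. It held a UMI of Atp6v0d2 in 22.2% of its cells and of Atp6v0a1 in 8.33%. These cells were not thinned and none was left out, so their shares are not at the depth of 5000 UMIs used above. Alveolar macrophage markers in this cluster stood, at the median, at 20.9% of their level in alveolar-macrophage-like cells. In the 63 of its cells with the lowest marker sums they stood at 6.78%. The 22.2% and 8.33% can therefore hold free RNA, doublets and the cells' own RNA, which were not separated.

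The ratios to air also varied with transcript length, taken as that of the longest annotated transcript of a gene. Over the 30 members Spearman's rho between transcript length and log2 ratio was −0.42 for 1 ppm and −0.33 for 1.5 ppm, and over 13033 genes with a length it was −0.33 and −0.31. Every point of a comparison shares its 2 libraries. At 1.5 ppm the 15 shorter members had a median log2 ratio of 0.05 and the 15 longer ones −0.14, beside 0.13 and −0.12 for shorter and longer genes in all. After centring on the 200 genes of nearest length, the log2 ratio to air at 1.5 ppm was 0.02 for Atp6v1f (uncentred 0.48), 0.05 for Atp6v1g1 (0.34), 0.10 for Cd63 (0.38) and −0.11 for Atp6v0b (0.28). It was 0.61 for Map1lc3b (uncentred 0.53), 0.52 for Atp6v0e (0.42), −0.49 for Atp6v0d1 (−0.42) and −0.30 for Atp6v0a1 (−0.46). The mitochondrial share moved with dose as well, as given above, and its part in these ratios was not tested.

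The 1.5 ppm library held more cycling macrophages: 20 of 22 genes of the G2 and M phases were at least 1.5-fold higher against air, where 12.6% of all genes were, with a median log2 ratio of 1.01. Ratios were therefore also taken within each of 12 clusters of alveolar-macrophage-like cells that had enough cells in both libraries. These clusters share their 2 libraries and are not replicates. The share of all genes that keep the same direction in every cluster was not counted, and these ratios are not centred on length. At 1.5 ppm, Atp6v0e, Atp6v1f, Atp6v1g1 and Lamp1 were above air in 12 of 12 clusters, and Atp6v0a1, Atp6v0d1 and Atp6v1b2 were below air in 12 of 12. Map1lc3b was above air in 11 of 12 clusters, with log2 ratios from −0.16 to 0.64, and Cd63 in 10 of 12, from −0.24 to 1.37. At 1 ppm, Atp6v0a1 was below air in 9 of 9 clusters, and Map1lc3b and Atp6v1f were above air in 9 of 9.

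Other lysosomal genes were taken from lists by function, whole and not gene by gene. Their counts at 1.5 ppm stand beside 22.8% of all genes higher and 18.3% lower past the same limit. Their medians at 1.5 ppm against air stand beside −0.04 for all genes. Neither counts nor medians were centred on transcript length. Of 33 measured soluble hydrolases and activators, 1 was higher past a log2 ratio of 0.32 and 9 lower at 1.5 ppm against air, with a median log2 ratio of −0.22. Hexa, a subunit of beta-hexosaminidase, had 348, 309 and 239 CPM over the doses, and Psap, the precursor of the saposins, had 2357, 2597 and 1879 CPM. Of 27 other lysosomal membrane genes, 3 were higher and 12 lower, with a median of −0.26. Laptm5, a lysosomal protein of blood cells, had 1679, 1584 and 1086 CPM, whereas Cd68, the macrophage sialomucin, had 228, 312 and 300 CPM. Of 26 autophagy genes, 1 was higher and 10 lower, with a median of −0.25. The receptor Sqstm1 had 226, 176 and 143 CPM, and Gabarapl2, a relative of Gabarap, had 66.2, 75.2 and 107 CPM. Of 18 genes of the Ragulator, Rag and mTORC1 group, 5 were higher and 3 lower. Lamtor2 and Lamtor5, subunits of the scaffold that tethers mTORC1 to the lysosome, had 212, 266 and 363 CPM and 68.1, 86.5 and 131 CPM. Of 13 further pump subunits and assembly factors, 1 was higher and 2 lower. Vma21, an assembly chaperone of V0, had 59.8, 64.0 and 92.0 CPM, and Dmxl2, which helps to join V1 to V0, had 614, 503 and 411 CPM. Of 5 relatives and partners of TFEB none was higher and 2 were lower. At 1 ppm against air the medians of these 6 lists lay between −0.09 and 0.10. The single genes named here were chosen after their values were seen.

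The members also varied between clusters of alveolar-macrophage-like cells within a library. These clusters were formed on expression and include shallow ones. In the 1.5 ppm library the level in the highest of 15 clusters was 1.58 times that in the lowest for Lamp2, the most even member, and 10.7 times for Cd63. A cluster led by Rgcc, Cxcr1 and Cd36 had 10946, 11690 and 12304 CPM of all 30 members in the air, 1 ppm and 1.5 ppm libraries. Against the other alveolar-macrophage-like cells of the same library, 4, 5 and 7 members were at least 1.5-fold higher there, where 4.25%, 4.39% and 6.48% of all genes were. No member was 1.5-fold lower, against 19%, 18.5% and 23.2% of all genes. Cd63 had the highest ratio to the other cells, at 2.80, 2.69 and 2.38 times. Its level in that cluster was 438 CPM in air, 524 CPM at 1 ppm and 566 CPM at 1.5 ppm. Atp6v0c followed at 1.74, 1.91 and 1.86 times, and Atp6v1c1 and Atp6v1g1 were also past 1.5-fold in all 3 libraries.

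A cluster led by Slc7a11, Hmox1 and Hspa1a, genes known from the response to oxidants and heat, held 86 cells of the 1.5 ppm library and 110 of the air library, and the 1 ppm library had too few to compare. It met 6 of the 15 alveolar macrophage markers, the fewest of any cluster in the class. In both libraries 9 members were at least 1.5-fold higher (12.3% of all genes at 1.5 ppm and 11.7% in air) and 1 was lower (31.8% and 33.2%). The lower one was Atp6v0d2, with 745 CPM in that cluster at 1.5 ppm, 0.602 times the other cells, and 724 CPM in air, 0.525 times. Atp6v0d2 supplied 74.0% of the d pair there at 1.5 ppm and 71.7% in air. Atp6v1a was higher, at 595 CPM and 2.45 times the other cells at 1.5 ppm and at 632 CPM and 2.61 times in air. At 1.5 ppm and in air Cd63 was 2.08 and 2.65 times, Gaa 2.13 and 2.47 times, Atp6v1h 2.11 and 1.97 times and Tfe3 1.75 and 2.03 times the other cells.

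A cluster led by Fabp4, Fabp5 and Plpp3 had 330 cells in the 1.5 ppm library and 11892 CPM of all members. There 9 members were at least 1.5-fold higher, where 4.22% of all genes were, and the scarce Atp6v1g2 was lower, where 28% of all genes were. Cd63 had 660 CPM, 3.09 times the other cells, Atp6v0c 993 CPM, 2.15 times, and Atp6v1c1 365 CPM, 2.06 times.

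The lowest sums belonged to 2 clusters with fewer UMIs and more mitochondrial RNA per cell. The one led by Gm27008, Lrrc4 and Insyn2b had medians of 7971, 8212 and 5473 UMIs and 8.52%, 7.68% and 6.35% mitochondrial UMIs over the doses, and 6047, 5891 and 5933 CPM of all members. In it 14, 13 and 12 members were at least 1.5-fold lower (29.8%, 30.8% and 27.3% of all genes) and 3, 4 and 6 higher (29.9%, 34% and 39.1%). Gabarap was 0.197, 0.181 and 0.158 times the other cells, and Atp6v1f, Atp6v1g1 and Map1lc3b were low too. Atp6v0a1 was higher, at 1.55, 1.57 and 1.97 times. The second, led by Neil3, Sdk1 and Brip1, had 64 cells at 1.5 ppm, 7.28% mitochondrial UMIs and 4720 CPM of all members. The part of RNA quality in these values was not tested.

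**Figure D3:**
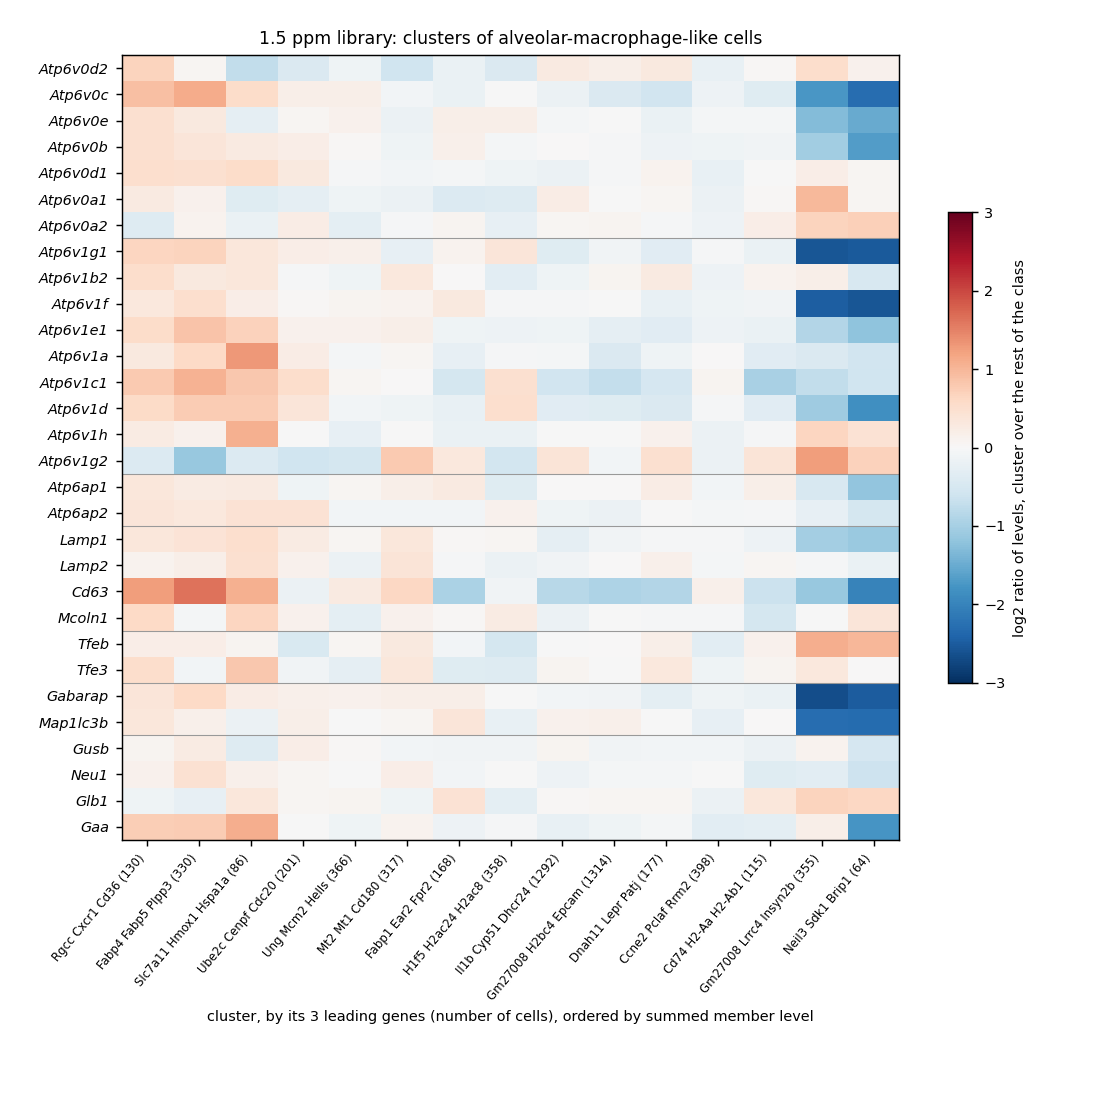
Heat map of log2 ratios of the 30 members (rows) in 15 clusters of alveolar-macrophage-like cells (columns) over the rest of that class, 1.5 ppm library, with columns ordered by the summed level of the members. Cd63 and Atp6v0c are high in the clusters of highest sum, Atp6v0d2 is low in the Hmox1 cluster, and the 2 clusters of lowest sum are low for most members.

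Other cell classes were compared with alveolar-macrophage-like cells of the same library, with a limit of 2-fold. Class names rest on markers, and no member was used to form the clusters. The interstitial macrophage-like class met 5 of 9 markers, while Folr2, Lyve1 and Cd163 were seen in 1.86%, 2.48% and 3.11% of its cells. The neutrophil-like class met 7 of 12, with Ly6g in 1.10% of cells and no UMI of Camp. The airway epithelial-like class met 8 of 12 and the migratory dendritic cell-like class 8 of 8. Free RNA and doublets can bring macrophage transcripts into other cells. In the 1.5 ppm library the alveolar macrophage markers stood, at the median, at 38.8% of their level in alveolar-macrophage-like cells in the neutrophil-like class, 36.1% in a cluster led by Ccl4, 32.9% in the airway epithelial-like and in the migratory dendritic cell-like class and 18.2% in the interstitial macrophage-like class. Comparisons were also made with only those cells whose summed markers lay under 25% of the median of alveolar-macrophage-like cells, a limit chosen after the data were seen. This was done where a class had at least 20 such cells in a library, which left out the 1 ppm interstitial macrophage-like class, with 14, and the Cst3 cluster described last.

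The highest level of the lysosomal set was found in a cluster led by Ccl4, Ccl3 and Thbs1, which held 248 cells of the 1.5 ppm library, 1 cell of the 1 ppm library and none of the air library. It had no class name, since its best match, conventional dendritic cells of type 2, had 2 of 8 markers. Its median was 2075.5 UMIs and 0.120% mitochondrial UMIs per cell. All 30 members summed to 21658 CPM there, against 8669 CPM in alveolar-macrophage-like cells. At least 2-fold higher were 9 members, where 12.6% of all genes were, and 1 was lower, where 40.6% were.

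Cd63 had 3173 CPM in the Ccl4 cluster and 245 CPM in alveolar-macrophage-like cells, 12.97 times (12.4 to 13.6), and was seen in 92.3% of its cells. In the T-cell-marked cluster of the same library Cd63 was seen in 12.5% of cells. Atp6v0c had 5097 and 499 CPM in these groups, 10.2 times (9.86 to 10.6). Atp6v1a had 946 against 247 CPM (3.83 times), Atp6v1c1 had 715 against 190 CPM (3.76 times) and Map1lc3b had 1140 against 311 CPM (3.67 times). Tfeb was 3.25 times (2.72 to 3.85) and Mcoln1 2.91 times (2.11 to 3.93), followed by Atp6v1e1 at 2.31 and Gabarap at 2.13 times. The 5 lowest were Atp6v0a2 at 0.480, Glb1 at 0.504, Gusb at 0.660, Atp6v0d2 at 0.691 and Atp6v1g2 at 1.00 times, the last from 3 UMIs (0.206 to 2.95). Of the other glycosidases, Neu1 was 1.06 times (0.795 to 1.38) and Gaa 1.14 times (0.620 to 1.91) the macrophage level, so none of the 4 glycosidase genes was 2-fold higher in this cluster. In the 67 of 248 cells with few macrophage markers the sum was 25396 CPM, and 13 members were higher (14.5% of all genes) and 4 lower (58.6%). Among these cells Cd63 was 15.9 times, Atp6v0c 12.0 times and Tfeb 4.63 times the level of alveolar-macrophage-like cells.

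In the neutrophil-like class of the 1.5 ppm library, with 79 cells and a median of 2289 UMIs, the sum was 9347 CPM. There 3 members were at least 2-fold higher (14.8% of all genes) and 6 lower (42.8%). The gene of the a1 subunit, lower with ozone in macrophages, had the highest ratio to the macrophage level. Atp6v0a1 had 843 CPM, against 135 CPM in alveolar-macrophage-like cells, 6.26 times (5.42 to 7.20). Atp6v0c was 2.82 times, Map1lc3b 2.28 times, Cd63 1.98 times and Tfe3 1.84 times the macrophage level. Lowest were Neu1 at 0.166 times (0.0343 to 0.486), from 3 UMIs, Atp6v1c1 at 0.399, Atp6v0d2 at 0.425, Atp6v1a at 0.443 and Lamp1 at 0.466 times. Atp6v1g2 had no UMI, which allows up to 12.6 CPM. In the 26 cells with few macrophage markers, Atp6v0a1 had 1365 CPM, 10.1 times (8.12 to 12.5), and Atp6v0d2 had 31.0 CPM, 0.0252 times (0.00306 to 0.0911), from 2 UMIs. There 4 members were higher (14.7% of all genes) and 9 lower (59.2%).

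**Figure D4:**
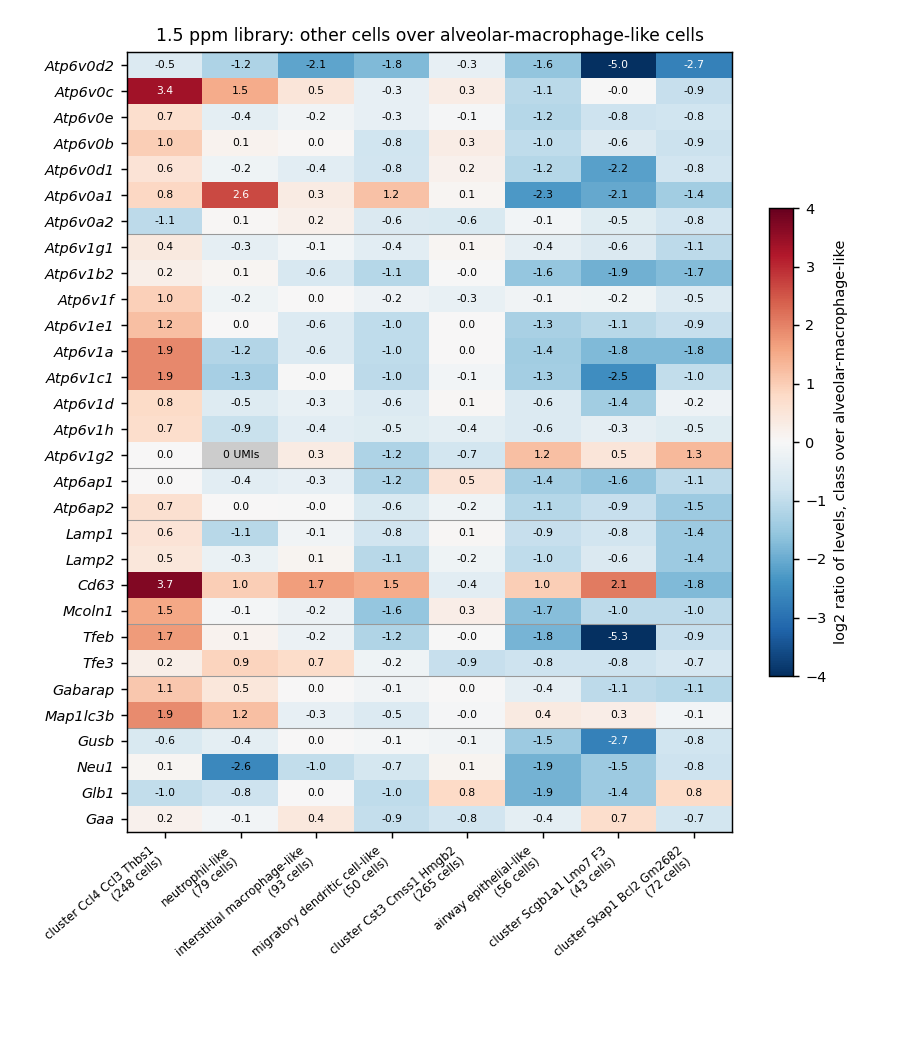
Heat map of log2 ratios of the 30 members (rows) in 8 other classes or clusters (columns) over alveolar-macrophage-like cells, 1.5 ppm library, with grey for no UMI. Cd63 is above the macrophage level in 6 of 8 columns, and Atp6v0d2 is below it in most columns.

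The interstitial macrophage-like class of the 1.5 ppm library, with 93 cells, had 7839 CPM of all members, with 1 member at least 2-fold higher (12.6% of all genes) and 1 lower (17.7%). In this class of the air, 1 ppm and 1.5 ppm libraries Cd63 had 569, 385 and 779 CPM, against 188, 251 and 245 CPM in alveolar-macrophage-like cells, or 3.02, 1.54 and 3.19 times. At 1.5 ppm the interval was 2.95 to 3.43. Atp6v0d2 was lower, at 0.366, 0.698 and 0.231 times the alveolar-macrophage-like level over the doses. At 1.5 ppm Tfe3 was 1.65 times, Atp6v0c 1.41, Gaa 1.34 and Atp6v0a1 1.26 times the macrophage level. Neu1 was 0.504, Atp6v1b2 0.639, Atp6v1e1 0.680 and Atp6v1a 0.683 times. In the 71 cells with few alveolar macrophage markers, Atp6v0d2 was 0.0608 times and Cd63 3.00 times the level of alveolar-macrophage-like cells, with 1 member higher (15.3% of all genes) and 2 lower (22.1%). In the 34 such cells of the air library Atp6v0d2 was 0.0641 times and Cd63 3.14 times, with 1 higher (16%) and 5 lower (27.2%).

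In the migratory dendritic cell-like class Cd63 and Atp6v0a1 had the highest ratios to the macrophage level. The 50 cells of the 1.5 ppm library had 6133 CPM of all members, with 2 members higher (12.8% of all genes) and 11 lower (34.3%). Cd63 was 2.83 times (2.54 to 3.13) and Atp6v0a1 2.27 times (1.94 to 2.65) the macrophage level. Atp6v0d2 was 0.292, Mcoln1 0.340, Atp6ap1 0.422 and Tfeb 0.430 times, and Atp6v1g2 had 1 UMI. In the 41 cells with few macrophage markers, Atp6v0d2 was 0.0404 times, Cd63 3.62 times and Atp6v0a1 2.49 times, with 2 members higher (14.2%) and 17 lower (45.3%). In the 26 cells of the air library, which all had few macrophage markers, the sum was 4175 CPM, with 1 member higher (14.4%) and 17 lower (48.8%). Cd63 had 496 CPM, 2.64 times, Atp6v0a1 365 CPM, 1.97 times, and Atp6v0d2 17.2 CPM from 5 UMIs, 0.0127 times. Of the UMIs of the d pair in those air cells, 5 of 29 were Atp6v0d2, or 17.2% (5.85% to 35.8%).

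Epithelial cells had lower levels for most members, and for many other genes. Over the 3 libraries, Scgb1a1 took 126804 CPM and Bpifa1 49133 CPM in the airway epithelial-like class. Levels are parts of a fixed total, and the part of such genes in these ratios was not tested. The airway epithelial-like class of the 1.5 ppm library, with 56 cells, had 5061 CPM of all members, with 1 higher (10.6% of all genes) and 18 lower (46.5%). The 1 past 2-fold was Atp6v1g2, 2.33 times (0.478 to 6.85) from 3 UMIs. Next came Cd63 at 1.97 and Map1lc3b at 1.29 times the macrophage level, and lowest were Atp6v0a1 at 0.202, Neu1 at 0.268, Glb1 at 0.270, Tfeb at 0.277 and Mcoln1 at 0.308 times. In its 34 cells with few macrophage markers 22 members were lower (66.4%) and Cd63 alone was higher (9.62%). A cluster led by Scgb1a1, Lmo7 and F3, with 43 cells and 6 of 10 alveolar epithelial markers, had 5221 CPM, with 1 member higher (15.4%) and 15 lower (38.2%). Cd63 had 1025 CPM there, 4.19 times (3.87 to 4.52). Tfeb, with 1 UMI, was 0.0251 times (0.000636 to 0.140), Atp6v0d2 0.0313, Gusb 0.154, Atp6v1c1 0.178 and Atp6v0d1 0.221 times. In its 37 cells with few macrophage markers 1 member was higher (16.4%) and 18 lower (39.5%).

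The T-cell-marked cluster, led by Skap1, Bcl2 and Gm2682, had 3963 CPM of all members at 1.5 ppm, the lowest sum of the classes compared there. Of its members 1 was at least 2-fold higher (18% of all genes), Atp6v1g2 with 4 UMIs, and 12 were lower (27.8%). Atp6v0d2 was 0.153, Atp6v1a 0.294, Cd63 0.297, Atp6v1b2 0.298 and Atp6ap2 0.362 times the macrophage level. Glb1 was 1.71 times (1.10 to 2.55). In the 63 cells with few macrophage markers 1 member was higher (21.3%) and 19 were lower (34.1%). A shallow cluster led by Cst3, Cmss1 and Hmgb2, with 265 cells, a median of 1039 UMIs and 9 of 15 alveolar macrophage markers, had 8570 CPM, with no member past 2-fold higher (7.7% of all genes) or lower (19.8%). In the air library, with 50 cells, 8 members were lower (52.4%) and none higher (9.23%), and 4 members had no UMI. At 1 ppm, with 32 cells, 3 were lower (46.2%) and none higher (9.75%). Of the 265 cells at 1.5 ppm only 8 had few macrophage markers, and the markers stood at 88.6% of their level in alveolar-macrophage-like cells. Cd63 was thus above the alveolar-macrophage-like level by 1.97 times or more in 6 of the 8 groups, and Atp6v0d2 was below it by more than 2-fold in 6 of the 8.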

How the data were processed

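Per the labels' protocols, libraries were made with the 10x Chromium 3' kit, version 3.1. The authors deposited whole-number UMI counts for each gene in each barcode. Per the file headers these come from Cell Ranger 8.0.0, and the submitters' processing notes name the build GRCm39 (mm39). The treatment of intronic reads was not given in the sources used here. No barcode held under 500 UMIs.

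Barcodes of at least 500 UMIs, 300 genes and at most 10% mitochondrial UMIs were kept. Clustering used 2000 variable genes without the members, 30 principal components, 15 neighbours and the Leiden method at resolution 1 (scanpy 1.11.5, leidenalg 0.10.2, Python 3.11.15, scipy 1.17.1), giving 23 clusters. A cluster took a class name from at least 3 markers, each seen in at least 25% of its cells and at 25% or more of the level of the highest cluster of 30 or more cells. These scoring limits were chosen with the data in view. No doublet caller was run, so doublets remain. Classes of under 20 cells in a library were not compared.

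UMIs were summed per class and library. With 1 library per group no test was possible. Levels carry exact Poisson intervals, ratios exact conditional intervals and shares Clopper-Pearson intervals, at 95%. For log2 ratios 1 UMI was added to each sum before scaling to CPM, and a count of 0 is given the limit of 3 counts. Limits were 1.5-fold and a log2 ratio of 0.32 between doses, 2-fold between classes and 1.5-fold between clusters. Transcript lengths are those of each gene's longest transcript in the annotation on the older build GRCm38, matched by gene identifier for 97.6% of genes. Which transcript the cells expressed was not examined. The interval and ratio code was checked on simulated counts. All members of the set are named, those of other classes by the 5 highest and 5 lowest ratios or fewer. The members and the gene lists were chosen with earlier results of these data known. Alternatives covered cell filters, scaling, summaries, cell subsets, clustering, centring and the UMI minimum.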

Additional observations from a re-analysis of the deposited data

How the results depend on the processing

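Here the lower limit is a log2 ratio of 0.32 either way. All 10 members past it at 1.5 ppm against air kept their direction under the 15 alternatives tried for single genes, from 0.48 to 0.70 (log2) for Map1lc3b, from 0.02 to 0.67 for Atp6v1f and from −0.49 to −0.30 for Atp6v0a1. Counts of members moved as follows, and the share of all genes past the limits was not counted under these alternatives. For 1 ppm against air, 0 were higher past the lower limit after centring on genes of like transcript length. With every matching gene of at least 1 UMI, 36 in all, 2 were 1.5-fold higher and 2 lower. Past the lower limit 3 were then higher and 3 lower. The genes that this minimum adds, which supply every added call, had at most 10 UMIs each in the alveolar-macrophage-like cells of any library. For 1.5 ppm against air, 1.5-fold higher were 3 over all deposited barcodes, 2 after centring on genes of like level and 1 on genes of like length. There 3 were higher past the lower limit with the mean of each cell's CPM, without cells of 3 or more G2 and M phase UMIs, in cells of 2.5 to 4% mitochondrial UMIs, and with like length. Lower past that limit were 3 with like level or like length and 9 with the 1 UMI minimum, of which 4 were lower by 1.5-fold, and the median with like level was −0.020. For 1.5 ppm against 1 ppm, higher past the lower limit were 2 over all classes, 3 over all deposited barcodes, 0 at 2.5 to 4% mitochondrial UMIs and 3 with like level. Lower were 3 with the mean of each cell's CPM or without G2 and M phase cells, and 10 with the 1 UMI minimum, of which 4 by 1.5-fold. The median there was −0.085 with like length and −0.092 with the 1 UMI minimum. The median share of cells with a UMI of a member was 60.0%, 56.3% and 56.8% in the air, 1 ppm and 1.5 ppm libraries thinned and 87.4%, 88.1% and 83.5% unthinned. In the 1.5 ppm library, cells of few alveolar macrophage markers moved the median ratio of the members to 0.244 in the airway epithelial-like class (0.467 over all its cells), to 0.391 in the migratory dendritic cell-like class (0.604) and to 1.79 in the Ccl4 cluster (1.58). That limit, leaving out the 2 shallow high-mitochondrial clusters and adding the shallow Cst3 cluster were chosen after seeing the data. The causes were not tested. Another scaling moved the median of all genes by under 0.1 (log2). No paired analysis was possible because each group is 1 pooled library.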
